A study of Homo sapiens with 6 samples.

Results

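The 113 solute carrier (SLC) genes described here were chosen from 231 on the microarray by their mean intensity over all 6 samples, which had to exceed 28. Solute carriers are membrane proteins that move nutrients, ions, vitamins and metabolites across the plasma membrane or the membranes of organelles. Their genes carry the prefix SLC and a family number, and each family has its own substrates. Some exchange 1 solute for another, and others follow a sodium or proton gradient. In fibroblasts they supply amino acids for growth and matrix synthesis, nucleotide sugars for glycosylation in the Golgi, and metabolites for mitochondria.

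The SLC genes were followed in WI-38 cells, a normal human diploid fibroblast strain from fetal lung. RASv12 cells overexpressed an active form of the RAS GTPase and are labelled senescent, and control cells are labelled wild type and growing, with 3 samples in each group. All were kept at 3% oxygen, and the protocol describes retroviral gene transfer. No label states an empty vector for control cells or the promoter that drove RASv12, so infection and RASv12 cannot be told apart. Separate cultures are not stated either, and p-values therefore cover the spread of these samples alone, which may be technical. Control samples are labelled Cy5 and RASv12 samples Cy3, so if 2 dyes were used, dye and group cannot be told apart.

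Of 11963 genes measured by probe sets with 1 gene symbol, 238 had a symbol that starts with SLC and a digit. Of these, 7 well known carriers of glucose, cystine, phosphate and metals were set aside by name. The remaining 231 were selected on the mean deposited intensity of their brightest probe set over all 6 arrays. The 113 genes with a mean above 28 are described here, and 118 lay at or under that level, which is close to the brightest control probe set for low bacterial spikes (27.98). That mean chose the genes and is a description. Just above it lay SLC6A12 at 28.001, SLC12A8 at 28.5 and SLC38A12 at 29.5, and just under it SLC16A5 at 27.95, the antisense gene SLC67A1-AS at 27.7 and SLC9A2 at 27.6. The symbols SLC2A4RG and SLC4A1AP belong to proteins that are not transporters, so 111 of the 113 are carriers by name. All 113 were measured, but 11 had a mean above 28 in 1 group only. Of those 11, 4 were called higher (SLC5A5, SLC19A2, SLC28A3 and SLC66A3) and 2 lower (SLC23A2 and SLC38A12). For them, being included and being different are tied.

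On each array 48.6% to 54.1% of probe sets exceeded the low bacterial controls. Arrays of 1 group correlated at 0.975 to 0.987, and arrays of different groups at 0.912 to 0.928. In every sample all 10 fibroblast markers checked were above that level, among them VIM, at means of 4672 in RASv12 cells and 5029 in control cells. All 5 leukocyte markers measured had means at or under it in both groups, as had 4 of 6 endothelial and 3 of 8 epithelial markers. Of the fibroblast markers, 7 of 10 were called lower in RASv12 cells and none higher. Of all genes 15.5% were called lower, and of those with a mean above 28, 22.5%. Of the 8 epithelial markers 2 were called higher and 2 lower, and of the 6 endothelial markers 1 was called lower. No leukocyte marker was called. The summed intensity of the fibroblast markers was between 9308 and 10503 in RASv12 samples and between 14671 and 16182 in control samples. In RNA from whole cultures, fewer cells of a type and less RNA per cell cannot be told apart.

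The 113 SLC genes moved in both directions in RASv12 cells, and more of them were called higher than lower. A gene was called at a Benjamini-Hochberg adjusted p under 0.05 in a limma fit over all genes. Of the 113, 32 were called higher (28.3%), 11 lower (9.73%) and 70 in neither direction. Over all genes, 13.9% were called higher and 15.5% lower, and over the 7158 genes with a mean above 28 these shares were 19.6% and 22.5%. The share of SLC genes called in either direction, 38.1%, was near the 42.1% of genes at that level, and 29.4% of all genes were called. The median log2 change of the 113 was 0.21, against -0.0010 for all genes at that level. On the log2(intensity + 16) scale, which understates changes of dim genes, changes of at least 2-fold were called for 12 SLC genes, 9 higher and 3 lower. These were 10.6% of the SLC genes, against 13.0% of genes at that level and 8.53% of all genes. The groups did not overlap for 61 SLC genes (54.0%), against 56.7% of genes at that level and 41.6% of all genes. All 43 called SLC genes were among the 61.

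How many of the smaller changes were called depended on how arrays were scaled. With arrays scaled to the hybridization controls, which were lower on the RASv12 arrays, the median of all genes was 0.20 and that of the SLC genes 0.44. Then 44 SLC genes were called higher and 5 lower, and rises made up 89.8% of calls, where the reported fit had 74.4%. The 5 lower calls that this scaling kept were SLC38A2, SLC2A4RG, SLC23A2, SLC4A4 and SLC2A10. All 32 genes called higher kept that call under it, and none of the 43 called changes turned direction. With the values as deposited, 28 SLC genes were called higher and 14 lower, and rises made up 66.7% of calls. At a level of 14 in place of 28, 35 of 158 genes were called higher and 18 lower, so 66.0% of calls were rises. In the reported fit, 3 of the 118 SLC genes at or under the level of 28 were called higher and 9 lower.

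**Figure D1:**
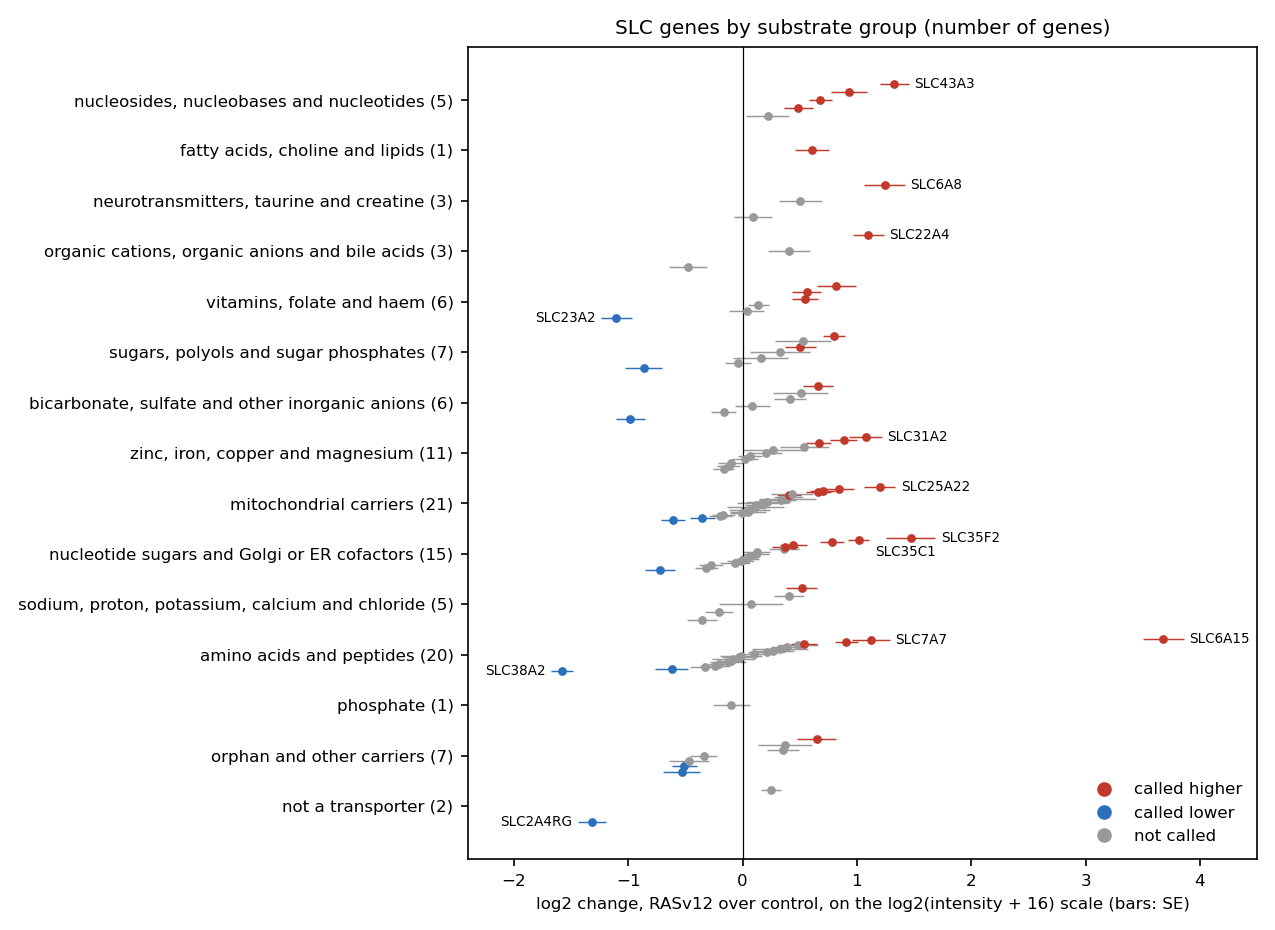
Log2 change (RASv12 over control, on the log2(intensity + 16) scale, x axis) of each of the 113 SLC genes, in rows by substrate group with the number of genes; bars are SE, red points are called higher, blue lower and grey not called. SLC6A15, at 3.68, lies far to the right of every other gene, and SLC38A2, at -1.58, is the lowest.

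Carriers of amino acids gave both the largest rise and the largest fall of the SLC genes. Of 20 such genes, 4 were called higher, 2 lower and 14 in neither direction, with a median of 0.045. The shares called higher and lower were 13.9% and 15.5% of all genes, and 19.6% and 22.5% of those above 28. SLC6A15, a sodium-coupled carrier of branched-chain amino acids and proline that is best known from brain, had intensities of 996, 922 and 596 in RASv12 cells, against 47.1, 51.1 and 52.5 in control cells. Even the dimmest RASv12 sample was more than 10-fold above the brightest control sample. The log2 change was 3.68 ± 0.18 (SE) with adjusted p = 1.6e-05. SLC38A2, a sodium-coupled carrier of glutamine, alanine and other small neutral amino acids, had intensities of 749, 761 and 677 in RASv12 cells, against 2109, 2030.2 and 2325 in control cells. It fell by 1.58 on the log2 scale (adjusted p = 3.8e-05), on a probe set of the kind that may bind other transcripts. The groups lay far apart, and the second probe set of SLC38A2 gave -1.60. Its paralogue SLC38A1, with a similar substrate range, had 409, 279 and 351 in RASv12 cells, against 277, 414 and 343 in control cells. These values overlapped, and the log2 change of -0.013 had a 95% interval of -0.44 to 0.42.

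The exchangers of large neutral and cationic amino acids are pairs of a heavy chain, SLC3A2, which brings the pair to the cell surface, and a light chain of the SLC7 family, which forms the transport path. SLC3A2 had intensities of 184, 173 and 231 in RASv12 cells, against 199, 179 and 229 in control cells. The groups overlapped, with a log2 change of -0.034 and a 95% interval of -0.38 to 0.31. Among its light chains SLC7A5, which carries leucine and other large neutral amino acids, had 163, 162 and 183 in RASv12 cells, against 93.2, 82.5 and 80.4 in control cells. All RASv12 values lay above all control values, with a log2 change of 0.91 ± 0.10 and adjusted p = 7.0e-04. SLC7A7, which exchanges cationic for neutral amino acids, had 79.5, 87.7 and 93.7 in RASv12 cells, against 45.9, 32.3 and 21.997 in control cells, and rose by 1.12 ± 0.17 (adjusted p = 0.0027). SLC7A8, which carries neutral amino acids, had 46.7, 41.9 and 50.8 in RASv12 cells, against 24.9, 26.4 and 32.8 in control cells on its brightest probe set, which rose by 0.54 ± 0.11. Its other 4 probe sets lay within the low controls and were not called, and the mean over its probe sets was not called. SLC7A6, the partner of SLC7A7 in substrate range, was at -0.079 (adjusted p = 0.80) on its brightest probe set, while a dimmer one gave 1.05 with adjusted p = 0.0024.

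Promoter windows of carriers that moved differently are shown, from RefSeq on GRCh38.p14, each with 250 bases before and 50 after an annotated start. SLC7A5 (chr16:87869458-87869757, minus strand) was called higher, SLC3A2 (chr11:62881449-62881748, plus strand) and SLC1A5 (chr19:46784765-46785064, minus strand) were not called, and SLC38A2 (chr12:46372724-46373023, minus strand) was called lower. Capitals mark matches on either strand to an ATF4 response element (TGATGNAA), an AP-1 element (TGANTCA) or an E-box (CACGTG).
SLC7A5: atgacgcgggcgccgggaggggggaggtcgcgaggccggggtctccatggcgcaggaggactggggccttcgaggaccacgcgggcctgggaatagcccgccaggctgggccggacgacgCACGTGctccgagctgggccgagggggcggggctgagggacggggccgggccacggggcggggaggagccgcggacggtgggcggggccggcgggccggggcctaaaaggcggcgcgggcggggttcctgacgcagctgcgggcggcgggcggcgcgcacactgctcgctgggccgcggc
SLC3A2: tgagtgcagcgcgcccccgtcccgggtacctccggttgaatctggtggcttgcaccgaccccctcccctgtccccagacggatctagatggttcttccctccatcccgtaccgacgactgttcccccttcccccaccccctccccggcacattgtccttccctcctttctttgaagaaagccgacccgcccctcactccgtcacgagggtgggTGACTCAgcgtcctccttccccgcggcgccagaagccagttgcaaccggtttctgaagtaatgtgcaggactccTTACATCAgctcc
SLC1A5: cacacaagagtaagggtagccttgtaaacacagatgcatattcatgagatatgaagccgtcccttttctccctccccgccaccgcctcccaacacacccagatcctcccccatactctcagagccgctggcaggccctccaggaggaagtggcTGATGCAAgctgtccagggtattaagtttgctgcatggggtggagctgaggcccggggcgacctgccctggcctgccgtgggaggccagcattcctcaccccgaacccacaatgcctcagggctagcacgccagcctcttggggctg
SLC38A2: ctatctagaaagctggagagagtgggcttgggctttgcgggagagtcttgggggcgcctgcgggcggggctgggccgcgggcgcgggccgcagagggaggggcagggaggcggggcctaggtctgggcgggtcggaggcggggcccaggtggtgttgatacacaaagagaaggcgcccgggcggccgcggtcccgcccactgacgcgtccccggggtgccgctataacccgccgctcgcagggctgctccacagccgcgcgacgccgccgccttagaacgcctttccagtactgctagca
The SLC7A5 window holds 1 E-box, the SLC3A2 window 1 AP-1 and 1 ATF4 match, and the SLC1A5 window 1 ATF4 match, while these letters are not in the SLC38A2 window. None of the matches in these windows overlap. The printed windows of genes not called, SLC3A2 and SLC1A5, were taken only from those with ATF4 letters. The ATF4 match in them therefore follows from that choice. Windows were found for 97 of the 113 genes. The E-box stood in 9 of 39 windows of genes called higher (23.1%), 0 of 14 windows of genes called lower and 16 of 96 windows of genes not called (16.7%), against 7.26% of all windows in the table. The ATF4 letters stood in 1 of 39 windows of genes called higher and 8 of 96 of genes not called (8.33%), against 3.62% of all windows. AP-1 letters stood in 4 of 39 windows of genes called higher, 2 of 14 of genes called lower and 3 of 96 of genes not called, against 7.71% of all windows. Windows of 1 gene can overlap, and a match is a description and not a bound site.

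Of the other carriers of amino acids, only SLC38A12 was called. SLC1A5, a main route of glutamine entry into dividing cells, had 120.0, 166 and 135 in RASv12 cells, against 169, 185 and 189 in control cells. The groups did not overlap, but the log2 change of -0.33 did not pass (adjusted p = 0.10). SLC7A1, the main carrier of arginine and lysine, had means of 189 in RASv12 cells and 177 in control cells, with a log2 change of 0.10 and a 95% interval of -0.23 to 0.44. SLC1A4, which carries serine and alanine, was at -0.13 with an interval of -0.49 to 0.24, and the glutamate carrier SLC1A1 at -0.10 with -0.39 to 0.18. SLC43A1, a carrier of large neutral amino acids, and the lysosomal carriers SLC36A1 and SLC38A7 were at 0.21, 0.33 and 0.27 and did not pass. The remaining 5 were SLC7A4, SLC1A7, SLC38A6, SLC38A10 and SLC38A12, with SLC38A12 lower by at least 1.39-fold in RASv12 cells, where all 3 samples lay within the low controls. That call was lost under 5 of 16 alternatives.

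**Figure D2:**
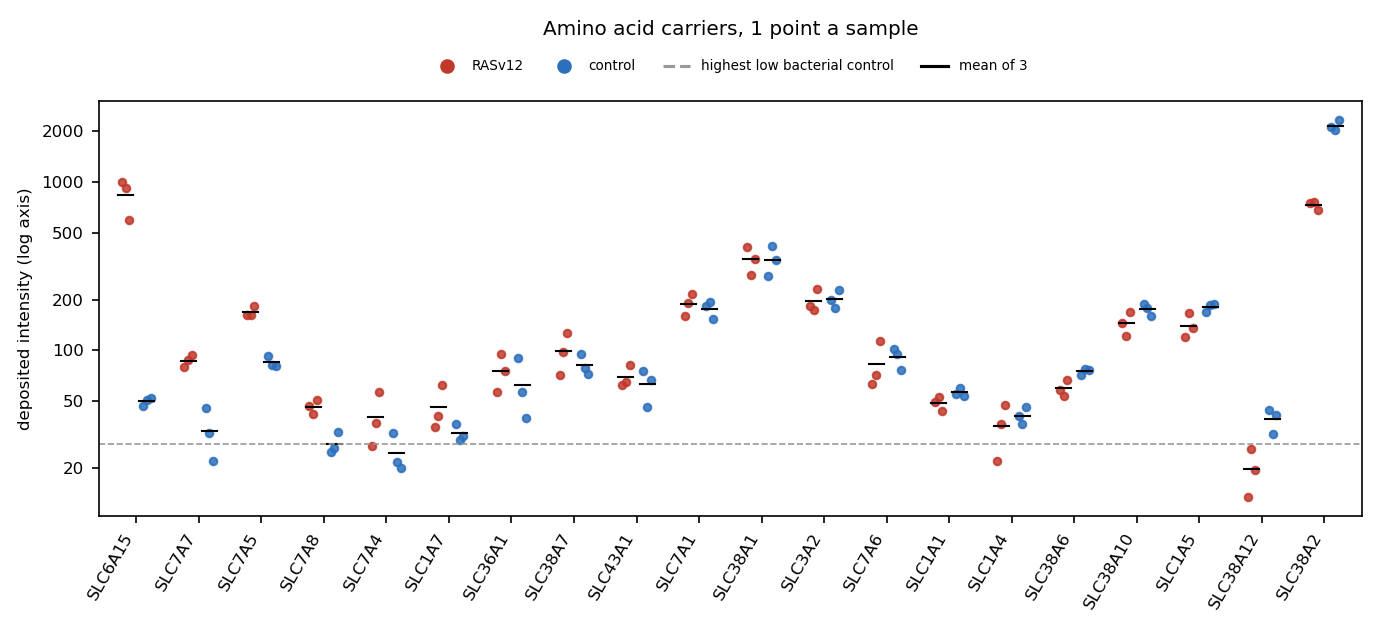
Deposited intensity (log axis) of the 20 amino acid carriers in RASv12 (red) and control (blue) samples, 1 point a sample, with the mean of 3 as a black line and the brightest low bacterial control as a dashed line. SLC6A15 is higher and SLC38A2 lower in all RASv12 samples, while SLC3A2 and SLC38A1 show overlapping groups.

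Many amino acid carriers are induced with a wider set of genes when amino acids run short, through the transcription factor ATF4. Of 21 measured genes of that response outside the SLC family, 5 were called higher, 5 lower and 11 in neither direction, with a median of -0.049. Of all genes 13.9% were called higher and 15.5% lower, and of those above 28, 19.6% and 22.5%. TRIB3, a pseudokinase that feeds back on the response, rose by 1.69 ± 0.095, and CEBPB, a transcription factor that is also induced in inflammation, by 0.98 ± 0.090. ASNS, the asparagine synthetase, was called lower at -1.15 ± 0.18, and PHGDH, the entry enzyme of serine synthesis, at -1.25 ± 0.15. ATF4 itself, named here after its values were seen, was at -0.32 and did not pass (adjusted p = 0.13).

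Among the carriers of nucleosides, nucleobases and nucleotides, SLC43A3, SLC29A1 and SLC17A9 rose in RASv12 cells. Of the 5 above the level, 4 were called higher and none lower, with a median of 0.68, and the fourth, SLC28A3, passed the level through the RASv12 samples only. Among all genes 13.9% were called higher, and among those above 28, 19.6%. SLC43A3, which carries purine nucleobases, had intensities of 282, 278 and 342 in RASv12 cells, against 121, 106 and 104 in control cells. Every RASv12 value was more than 2-fold above every control value, the log2 change was 1.33 ± 0.13 (adjusted p = 3.1e-04), and its second probe set gave 1.82. SLC29A1, the main equilibrative carrier of nucleosides at the cell surface, had 73.001, 74.4 and 68.7 in RASv12 cells, against 39.04, 40.2 and 44.5 in control cells. The groups did not overlap, and both of its probe sets were called higher, the brighter at 0.68 ± 0.099. SLC17A9, which loads ATP into secretory vesicles and lysosomes, had 62.5, 81.3 and 62.8 in RASv12 cells, against 25.5, 39.03 and 25.9 in control cells, and rose by 0.93 ± 0.16 (adjusted p = 0.0044). SLC28A3, a sodium-coupled nucleoside carrier, was close to the low controls, at least 1.33-fold higher in RASv12 cells, and lost its call under 6 of 16 alternatives. Its relative SLC28A1 was at 0.22 (adjusted p = 0.45).

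Both copper carriers and an iron carrier rose, while none of the zinc carriers among the 113 passed. The zinc carriers SLC39A14 and SLC39A8, set aside by name, were called higher. Of the 11 carriers of zinc, iron, copper and magnesium among the 113, 3 were called higher and none lower, with a median of 0.21. Genes called higher were 13.9% of all genes and 19.6% of those above 28. SLC31A1, the high-affinity copper importer, had intensities of 137, 123 and 109 in RASv12 cells, against 55.2, 63.2 and 66.9 in control cells. SLC31A2, its relative on endosomes and lysosomes, had 75.5, 77.7 and 106 in RASv12 cells, against 39.2, 26.3 and 36.5 in control cells. Both copper carriers were higher in each RASv12 sample than in any control sample, by 0.88 ± 0.12 for SLC31A1 and 1.08 ± 0.14 for SLC31A2 on the log2 scale (adjusted p = 0.0018 and 0.0015). SLC11A2, which brings ferrous iron through the plasma and endosomal membranes, had 167, 194 and 200.1 in RASv12 cells, against 123, 107 and 112 in control cells. Its log2 change was 0.67 ± 0.11 with adjusted p = 0.0043, and 3 of its 4 probe sets were called higher. SLC39A6, a zinc importer, had 579, 622 and 547 in RASv12 cells, against 657, 638 and 639.8 in control cells. The groups did not overlap but lay close, at -0.16 with a 95% interval of -0.38 to 0.049. SLC30A9 and SLC30A5 of the zinc exporter family, SLC39A1, SLC39A7 and SLC39A9 of the zinc importer family, SLC41A3 of the magnesium family and SLC11A1, a metal carrier of phagocytes, had log2 changes between -0.12 and 0.54, and none of them passed.

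Vitamin carriers were called higher more often than lower, and the 1 fall held for 1 probe set only. Of 6 carriers of vitamins, folate and haem, 3 were called higher, 1 lower and 2 in neither direction. SLC23A2, the sodium-coupled carrier of ascorbate, had intensities of 23.4, 23.1 and 23.2 in RASv12 cells, against 83.2, 69.6 and 59.3 in control cells. All RASv12 values lay within the low controls, so the gene was at least 2.5-fold lower there (adjusted p = 0.0011). Its other probe sets disagreed, at 0.089, which was not called, and at 0.38, called higher (adjusted p = 0.039), so the direction holds for the brightest probe set only. SLC19A2, a thiamine carrier, rose at least 1.48-fold in RASv12 cells, with all 3 control samples within the low controls. SLC5A6, which carries biotin and pantothenate, had 90.1, 107 and 122 in RASv12 cells, against 68.6, 77.4 and 66.99 in control cells, and rose by 0.55 ± 0.12. SLC52A2, a riboflavin carrier, rose by 0.56 ± 0.13 on 1 probe set, which may bind other transcripts, and had 0.99 on the other, which was also called. Leaving out RASv12 replicate 2 or control replicate 2 ended the call of the first. The reduced folate carrier SLC19A1, at 0.14 with a 95% interval of -0.085 to 0.36, and the haem carrier SLC48A1, at 0.035 with -0.32 to 0.39, did not pass.

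Carriers of the SLC25 family sit in the inner mitochondrial membrane, with a few exceptions, and move metabolites, nucleotides and cofactors in and out of the matrix. Of 21, 5 were called higher, 2 lower and 14 in neither direction, with a median of 0.17. For all genes above 28, 19.6% were called higher and 22.5% lower, and for all genes 13.9% and 15.5%. SLC25A22, which imports glutamate, had intensities of 132, 121 and 157 in RASv12 cells, against 48.7, 46.1 and 63.4 in control cells. The RASv12 values were all well above the control values, with a log2 change of 1.20 ± 0.14 and adjusted p = 7.9e-04. SLC25A37, which imports iron for haem and iron-sulfur clusters, had 85.5, 102 and 101 in RASv12 cells, against 44.9, 61.8 and 41.8 in control cells. SLC25A32, which is linked to mitochondrial folate and FAD, had 199.6, 223 and 218 in RASv12 cells, against 141, 120.3 and 121 in control cells. In neither did the groups overlap, and the log2 changes were 0.84 ± 0.13 and 0.70 ± 0.11. SLC25A15, the ornithine carrier, rose by 0.66 ± 0.11 (adjusted p = 0.0040). SLC25A13, an aspartate and glutamate exchanger, was called at 0.41 ± 0.10 (adjusted p = 0.025), a call lost under 6 of 16 alternatives, among them the values as deposited. Its paralogue SLC25A12 was at -0.17 on the brighter probe set, not called, and at 0.41 on the other, called higher.

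SLC25A1, which exports citrate for fatty acid and sterol synthesis, was the clearest fall of the family, with 149, 151 and 138 in RASv12 cells, against 254, 225 and 216 in control cells. The groups did not overlap, and it fell by 0.60 on the log2 scale (adjusted p = 0.0052). Scaling to the hybridization controls ended that call. Among the ADP and ATP exchangers, SLC25A5, the main form of dividing cells, had 1794, 1636 and 1486 in RASv12 cells, against 1487, 1509.7 and 1441 in control cells, and SLC25A4, the form of heart and muscle, had 55.4, 57.6 and 60.9 in RASv12 cells, against 77.1, 78.7 and 94.04 in control cells. The groups overlapped for SLC25A5, which was not called at 0.11 (95% interval -0.11 to 0.34), while SLC25A4 was called lower at -0.35 with adjusted p = 0.046, just past the threshold, and lost the call under 10 of 16 alternatives. SLC25A3, the mitochondrial phosphate carrier, was at -0.19 with a 95% interval of -0.43 to 0.039. SLC25A20, which brings in acylcarnitines, was at 0.40 (adjusted p = 0.055), and the oxoglutarate carrier SLC25A11 at 0.33 (adjusted p = 0.12). The pyrimidine nucleotide carrier SLC25A36, at -0.0078 with an interval of -0.24 to 0.23, had means of 234 in RASv12 cells and 234 in control cells. The other 8, among them the iron carrier SLC25A28 and the outer membrane protein SLC25A46, lay between 0.051 and 0.43, and none passed.

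**Figure D3:**
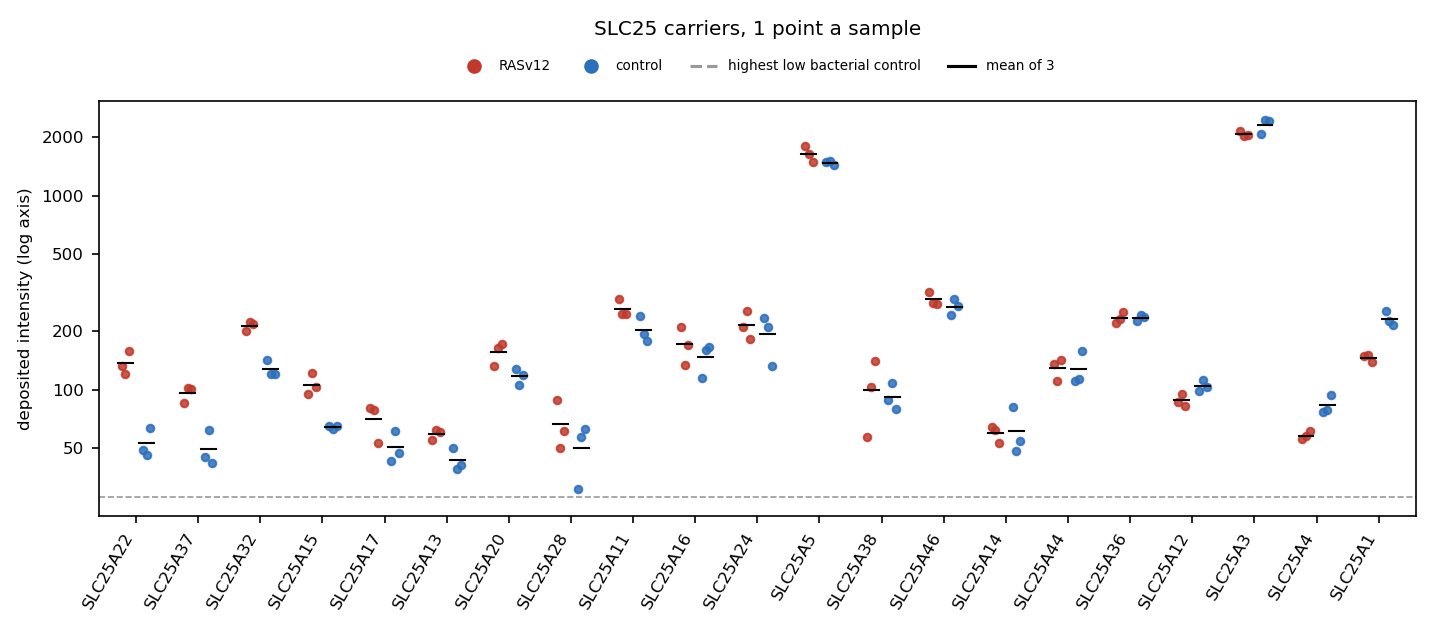
Deposited intensity (log axis) of the 21 SLC25 carriers in RASv12 (red) and control (blue) samples, 1 point a sample, with the mean of 3 as a black line and the brightest low bacterial control as a dashed line. SLC25A22, SLC25A37, SLC25A32 and SLC25A15 lie higher in all RASv12 samples, and SLC25A1 and SLC25A4 lower.

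Enzymes of the matrix that work beside these carriers gave 2 of 18 higher and 5 lower, with a median of -0.18. Of all genes 13.9% were called higher and 15.5% lower, and of those above 28, 19.6% and 22.5%. IDH2, the NADP-linked isocitrate dehydrogenase, fell by 1.50 on the log2 scale, and IDH3A, a subunit of the NAD-linked enzyme, rose by 0.95 ± 0.12.

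Carriers of the SLC35 family bring nucleotide sugars into the Golgi and endoplasmic reticulum, and those with a known sugar mostly did not pass. Of 15 genes, with the acetyl-CoA carrier SLC33A1 counted among them, 5 were called higher, 1 lower and 9 in neither direction. Over all genes the shares were 13.9% higher and 15.5% lower, and over genes above 28, 19.6% and 22.5%. SLC35C1, the GDP-fucose carrier, had intensities of 124, 111 and 135 in RASv12 cells, against 54.6, 55.5 and 54.6 in control cells. RASv12 samples were each about 2-fold or more above each control sample, with 1.01 ± 0.096 and adjusted p = 3.1e-04. SLC33A1, which feeds acetyl-CoA into the endoplasmic reticulum, had 138, 154 and 149 in RASv12 cells, against 91.02, 73.4 and 79.2 in control cells, and rose by 0.78 ± 0.11. SLC35F2, whose physiological substrate was long unassigned, had 139, 165 and 183 in RASv12 cells, against 64.7, 60.2 and 30.4 in control cells, and rose by 1.47 ± 0.21 (adjusted p = 0.0024). SLC35E3 and SLC35F6, with no substrate given here, were called at 0.44 and 0.37, and lost the call under 7 and 9 alternatives.

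SLC35A2, the UDP-galactose carrier, had 114, 117 and 125 in RASv12 cells, against 117, 114 and 118 in control cells. Those values overlapped, at 0.068 with a 95% interval of -0.14 to 0.27, although 1 dimmer probe set was called higher and another lower. The probe set called lower had means within the low controls in both groups. SLC35A1, the CMP-sialic acid carrier, had 75.7, 70.2 and 86.1 in RASv12 cells, against 106, 97.5 and 109.7 in control cells. Its groups did not overlap, and the change of -0.32 just missed the threshold (adjusted p = 0.054). The UDP-N-acetylglucosamine carrier SLC35A3, SLC35D1, which serves chondroitin synthesis, SLC35B1, which exchanges ATP and ADP in the endoplasmic reticulum, SLC35A5, SLC35D2, SLC35H1 and SLC35G2 lay between -0.27 and 0.36, and none passed. SLC35E1 was called lower at -0.72 on a probe set that may bind other transcripts, but its other 2 probe sets were called higher, at 0.50 and 0.50, so the probe sets do not give 1 direction. Of 26 measured Golgi enzymes that use nucleotide sugars, 4 were called higher and 8 lower, with a median of -0.19. Of all genes 13.9% were called higher and 15.5% lower, and of those above 28, 19.6% and 22.5%. GALNT2, which starts mucin-type chains, fell by 2.03 on the log2 scale, GALNT10 of the same family by 1.53 and the branching enzyme MGAT5 by 1.39. EXT1, which extends heparan sulfate, was called lower at -0.59 ± 0.097.

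Sugar carriers other than those set aside gave 2 rises and 1 fall among 7 genes. Rises were called for 13.9% of all genes and falls for 15.5%, and for 19.6% and 22.5% of those above 28. SLC2A10, a glucose transporter family member whose loss causes arterial tortuosity, had intensities of 113, 95.5 and 76.7 in RASv12 cells, against 159, 198 and 206 in control cells. All RASv12 values lay under all control values, and the gene fell by 0.86 on the log2 scale (adjusted p = 0.0072). SLC2A6, a lysosomal hexose carrier that macrophages induce, had 58.7, 58.1 and 64.1 in RASv12 cells, against 31.1, 32.1 and 25.3 in control cells. The groups were apart by 0.80 ± 0.096 (adjusted p = 0.0010). SLC17A5, which exports sialic acid from lysosomes, was called at 0.51 ± 0.13 (adjusted p = 0.029), a call that leaving out any of 4 single samples, or the replicate block, ended. The inositol carrier SLC5A3, at -0.041 with a 95% interval of -0.31 to 0.23, the urate carrier SLC2A9, the fructose carrier SLC2A5 and SLC50A1 did not pass. SLC2A4RG, a transcription factor named for a glucose transporter promoter and no carrier itself, had 52.9, 45.7 and 42.9 in RASv12 cells, against 145, 146 and 139 in control cells. It fell by 1.31 on the log2 scale (adjusted p = 2.9e-04), the second largest fall among the 113.

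Ion carriers were mostly not called. In either direction, 29.4% of all genes were called, and 42.1% of those above 28. Of 6 carriers of bicarbonate, sulfate and other anions, SLC4A4, a sodium and bicarbonate cotransporter, was called lower, with 75.2, 77.996 and 75.9 in RASv12 cells, against 164, 148 and 202 in control cells. The log2 change was -0.98 ± 0.13, but its 3 dimmer probe sets were not called and ran from -0.029 to 0.43, and the mean over all 4 lost the call. SLC5A5, the iodide carrier of the thyroid, rose at least 1.74-fold in RASv12 cells, near the low controls. The bicarbonate carrier SLC4A7 at 0.41 (adjusted p = 0.064), the anion exchanger SLC4A2 at 0.087, the sulfate carrier SLC26A2 at 0.51 and the molybdate carrier SLC61A1 at -0.16 did not pass. Of 5 cation and chloride cotransporters, SLC12A2, which brings in sodium, potassium and chloride, had 124, 136 and 177 in RASv12 cells, against 92.3, 108 and 99.02 in control cells. It was called at 0.52 ± 0.14 (adjusted p = 0.029), and leaving out any of 5 single samples ended the call. The potassium and chloride exporters SLC12A4, at 0.073, and SLC12A7, at 0.41, did not pass, nor did SLC12A8, SLC12A9 and the phosphate carrier SLC20A2.

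Among carriers of small organic solutes SLC22A4 gave a large rise, while that of SLC6A8 depended on the probe set. SLC22A4, which brings in the antioxidant ergothioneine, had intensities of 158, 135 and 141 in RASv12 cells, against 75.2, 52.3 and 57.4 in control cells. The groups did not overlap and differed by 1.10 ± 0.13 (adjusted p = 9.8e-04). SLC22A5, its neighbour in the family and the carnitine importer, had 17.2, 21.8 and 31.8 in RASv12 cells, against 54.1, 32.05 and 33.5 in control cells. It did not pass at -0.48 (adjusted p = 0.069), and a test of the difference between the pair was not made. SLC6A8, the creatine importer, had 184, 169 and 202 in RASv12 cells, against 50.5, 85.6 and 82.3 in control cells on its brightest probe set, a change of 1.24 ± 0.18. That probe set and a second one, at 1.52, are of a kind that may bind near-identical copies, and the third, at -0.20, was not called, so the rise of SLC6A8 itself is uncertain. SLC27A3, a fatty acid carrier with acyl-CoA synthetase activity, was called at 0.61 ± 0.15 (adjusted p = 0.021) and lost the call under 5 of 16 alternatives, 4 of which left out 1 sample. SLC6A12 and SLC6A13, which carry GABA, were near the low controls and did not pass, nor did SLC22A14.

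Of 7 orphan or otherwise unplaced carriers, SLC67A1, an imprinted gene with organic cation carrier features, had 55.9, 56.7 and 58.1 in RASv12 cells, against 98.3, 80.6 and 99.04 in control cells. It fell by 0.51 on the log2 scale (adjusted p = 0.012) with no overlap. SLC66A2 was called lower at -0.53 (adjusted p = 0.047), a call that 9 of 16 alternatives ended, and SLC66A3 was at least 1.57-fold higher near the low controls, a call that 4 alternatives ended. SLC9D1, SLC75A1, SLC49A3 and SLC10A3 did not pass, and neither did SLC4A1AP at 0.25.

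**Figure D4:**
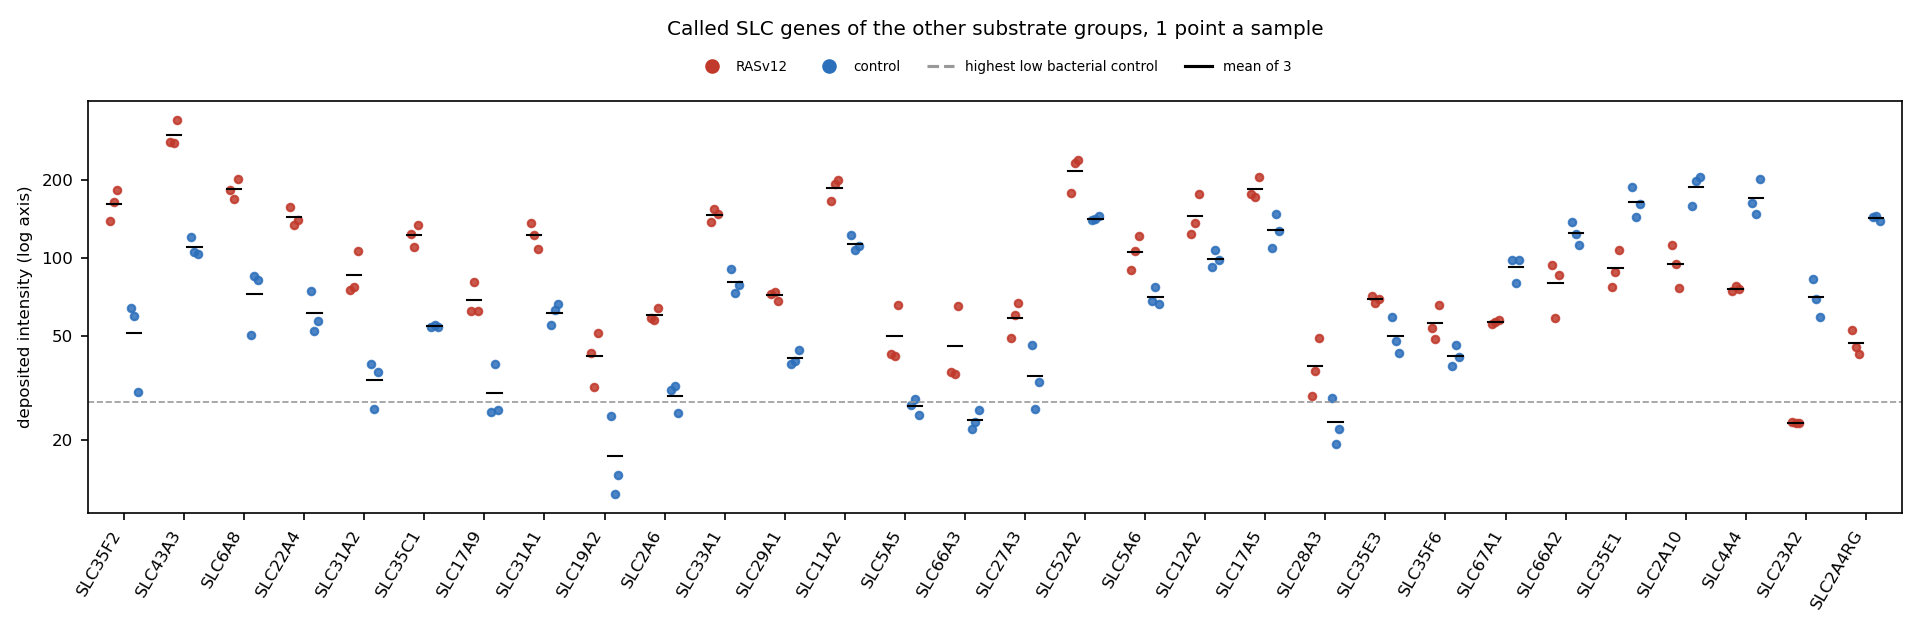
Deposited intensity (log axis) of the called SLC genes outside the amino acid and SLC25 groups, ordered from the largest rise to the largest fall, in RASv12 (red) and control (blue) samples, 1 point a sample, with the mean of 3 as a black line and the brightest low bacterial control as a dashed line. No gene shows overlap between the groups, and all samples of SLC23A2 in RASv12 cells and of SLC19A2 and SLC66A3 in control cells lie under the dashed line.

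Probe sets of 1 gene did not always move together, in a second fit with p-values adjusted over all probe sets. Of the 43 called genes, 28 had a single probe set and 15 had several. In 7 of those 15 at least 1 other probe set had the same call, and in 4 all others did. Probe sets of SLC23A2, SLC35A2 and SLC35E1 were called in both directions. For 8 of the 113 the brightest probe set was of the kind that may bind other transcripts. Besides SLC35A2, of the 70 genes not called, SLC7A6, SLC25A12, SLC35D1, SLC4A7, SLC5A3 and SLC11A1 had a dimmer probe set called higher, and SLC1A4, SLC35D2 and SLC48A1 one called lower. These called probe sets of SLC5A3, SLC1A4 and SLC48A1 had means within the low controls in both groups, as had the one of SLC35A2 called lower.

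The carriers set aside by name included larger changes than most of the 113. SLC20A1, a phosphate importer, had means of 3086 in RASv12 cells and 553 in control cells, SLC39A14, a zinc and iron importer, 937 in RASv12 cells and 189.7 in control cells, and SLC7A11, the cystine importer, 94.3 in RASv12 cells and 675 in control cells. Transport proteins outside the SLC family were also split. Of all genes 13.9% were called higher and 15.5% lower, and of those above 28, 19.6% and 22.5%. Of 25 pumps and ABC transporters, 7 were called higher and 6 lower, with a median of 0.15. ATP2B1, a calcium pump of the plasma membrane, rose by 2.99 ± 0.24, while the drug and conjugate exporters ABCC1 and ABCC4 fell by 1.60 and 1.58 on the log2 scale, and ABCC3 was at least 2.81-fold lower. Of 21 channels, aquaporins and SLCO genes, 6 were called higher and 3 lower, with a median of 0.21. The calcium channel TRPV2 rose by 1.17 ± 0.10, and RASv12 cells had at least 2.37-fold lower AQP3, a glycerol channel.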

How the data were processed

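The authors deposited a linear signal intensity for each of 22283 probe sets of an Affymetrix expression microarray, made with MAS5 per the submitters' processing notes, whose version is not given there. The trimmed mean of each array was 100.0, so arrays had been scaled before deposit. The number of arrays limits the precision.

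The 68 control probe sets were left out and 22215 kept. GEO's platform annotation gave 1 symbol for 19065 of these, several for 1043 and none for 2107. Only those with 1 symbol were named, with symbols from RefSeq on GRCh38.p14. Intensities were transformed as log2(value + 16), which understates changes of dim genes, and quantile normalized. The brightest probe set stood for a gene. RASv12 and control samples were compared with limma 3.58.1 in R 4.3.3 (lmFit and eBayes, 11963 genes), with Benjamini-Hochberg adjustment over all genes and a threshold of 0.05. The procedure was tested on simulated data. A group with all samples, or its mean, at or under 27.98 gives a fold as "at least", from deposited log2 intensities with dim values raised to that level.

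The SLC genes, their groups and the other lists were chosen with earlier results of these data known. Genes were named if they were called with a large change, had the largest moderated t in a group, were brightest there, or lay next to the level of 28, with their partners and paralogues. Replicate numbers were shared by the groups, but correlations of deviations ran from -0.23 to -0.028 for same-numbered samples, so they do not pair the samples. Alternatives changed the scaling, pseudocount, filter on dim probe sets, summary of probe sets, replicate block and level for inclusion, or left out 1 sample. No batch correction was made here. Some SLC genes are not analysed here.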

Additional observations from a re-analysis of the deposited data

How the results depend on the processing

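Over 16 alternatives fitted to all genes, 25 of the 43 called SLC genes kept their call, 22 higher and 3 lower, and 18 lost it under at least 1. The count called lower was 5 with scaling to the hybridization controls, against 11 in the reported fit, and 18 when the level for inclusion was 14 in place of 28. Leaving out 1 sample gave 24 to 36 genes called higher and 8 to 11 called lower. The replicate number as a block gave 27 higher and 8 lower. The numbers do not pair the samples, since same-numbered samples did not deviate together. An estimate of the spread over all probe sets, chosen after seeing the data, gave 32 higher and 10 lower. With the mean of all probe sets of a gene, SLC35E1 turned to 0.095 (adjusted p = 0.52) and SLC7A6 to 0.37 (adjusted p = 0.024); for both, the dimmer probe sets moved the other way. SLC23A2 and SLC4A4 lost their calls under that rule, at -0.21 and -0.13. With the dimmest 50% of probe sets left out, 108 of the 113 remained. Genes close to the low bacterial controls have only a bound in 1 group.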
